A study of Mus musculus with 6 samples.

Results

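The genes examined here were 9 CC chemokine receptor genes, Ccr1, Ccr2, Ccr3, Ccr4, Ccr6, Ccr7, Ccr8, Ccr9 and Ccr10, chosen by symbol from 24223 genes in mouse RNA-Seq count data. The data were 6 libraries, with 2 for each of the cell types Naive, Th17 and Th1, from C57BL/6 mice of 1 to 2 months, with no genetic modification named. Naive cells were CD4+CD44- T cells isolated with a magnetic bead kit from pooled lymph nodes and spleens. The helper cells were cultured from such naive cells with anti-CD3 and anti-CD28 antibodies and were collected on day 5. Th1 cultures received anti-IL-4, IL-12 and IL-2, and Th17 cultures received anti-IL-4, anti-IFN-γ, TGF-β, IL-6, IL-1β and IL-23. The Naive cells were not cultured, so polarization and activation in culture cannot be told apart in either comparison with Naive. The methods describe biological replicates, but which animals were pooled into each library was not stated, and the p-values measure the spread between these libraries.

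Chemokine receptors are G protein-coupled receptors on the cell surface that bind small secreted proteins, the chemokines, and steer cell migration along their gradients. Receptors of the CC family bind chemokines with adjacent cysteines near the amino terminus, and a receptor often has several ligands. In T cells, some keep resting cells circulating through lymph nodes, as Ccr7 does, and others direct activated cells to inflamed tissue, gut or skin. Ccr6 is a known marker of Th17 cells.

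Libraries held from 17742158 to 69080017 counts, and replicate 1 was the deeper of each pair. Levels are CPM, counts scaled to equal depth on TMM-adjusted library totals, and 3 counts, taken as the limit of detection, corresponded to between 0.0440 and 0.190 CPM. All 9 receptor genes passed the filter on low counts, as did 13607 genes in all. Differences were tested with edgeR's quasi-likelihood F-test over these 13607 genes, and a gene was called up-regulated or down-regulated where its adjusted p (Benjamini-Hochberg) was below 0.01 and its log2 fold change was above 1 or below -1. All 10 CD4 T cell markers examined, among them Cd3e, Cd4 and Lck, exceeded 10 CPM in each library. Tbx21, the lineage factor of Th1 cells, followed the labels, at 138 and 158 CPM in Th1 and at most 23.3 CPM elsewhere. Gata3, the factor of type 2 helper cells, was also highest in Th1, at 117 and 241 CPM and at most 82.4 CPM elsewhere. Markers of granulocytes and other myeloid cells were also present, most of all in Th17, and erythroid markers in Naive, as described further on. In these bulk samples, fewer cells of a type and less RNA per cell cannot be told apart.

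Of the 9 receptors, 6 were called in at least 1 comparison and 3 (Ccr3, Ccr7 and Ccr8) in none. In Th17 against Naive, Ccr1 and Ccr2 were up-regulated and Ccr9 was down-regulated, which was 3 of 9 receptors where 5.43% of all genes tested were called (4.01% higher and 1.43% lower). In Th1 against Naive, Ccr2 and Ccr4 were up-regulated and Ccr6 and Ccr9 were down-regulated, or 4 of 9 against 7.45% of all genes (4.64% higher and 2.81% lower). In Th1 against Th17, Ccr10 was higher and Ccr1, Ccr2 and Ccr6 were lower, or 4 of 9 against 5.53% of all genes (2.7% higher and 2.83% lower). The median log2 fold change of the 9 receptors was 0.86, 0.33 and -0.27 in these comparisons, against -0.02, -0.02 and -0.03 over all genes tested. The first comparisons share the Naive libraries, and each also shares its helper libraries with the last. The 2 groups' libraries did not overlap in CPM for 8 receptors in Th17 against Naive, where 65.5% of all genes did not overlap. For Th1 against Naive, 6 receptors did not overlap, against 56% of all genes, and for Th1 against Th17, 6 did not, against 66.6%.

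**Figure D1:**
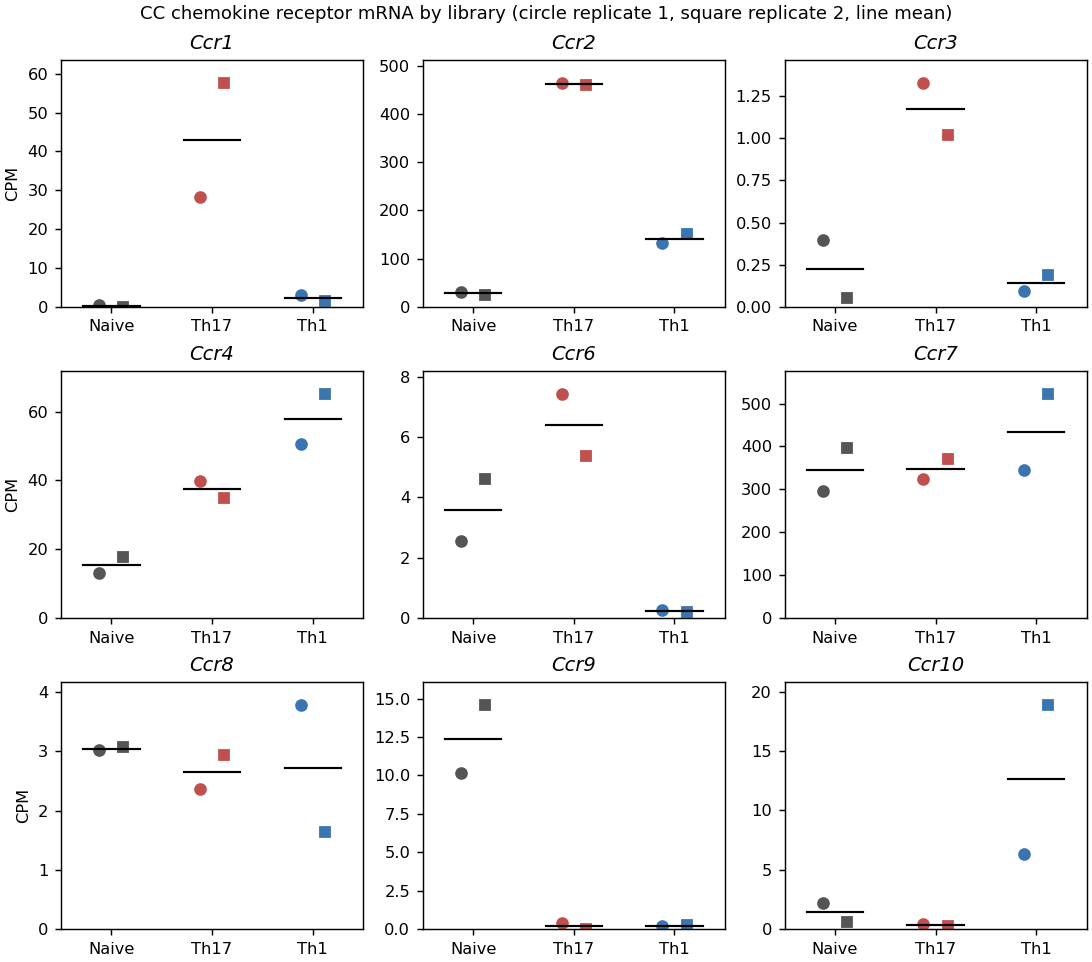
CPM (linear axis from 0, scaled separately for each gene) of the 9 receptor genes in the 6 libraries, with circles for replicate 1, squares for replicate 2 and a line at the mean of each cell type. Ccr2 stood at 465 and 459 CPM in Th17, above both other cell types, while Ccr9 was above 10 CPM in Naive alone and Ccr10 was highest in Th1 with replicates at 6.31 and 18.9 CPM.

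**Figure D2:**
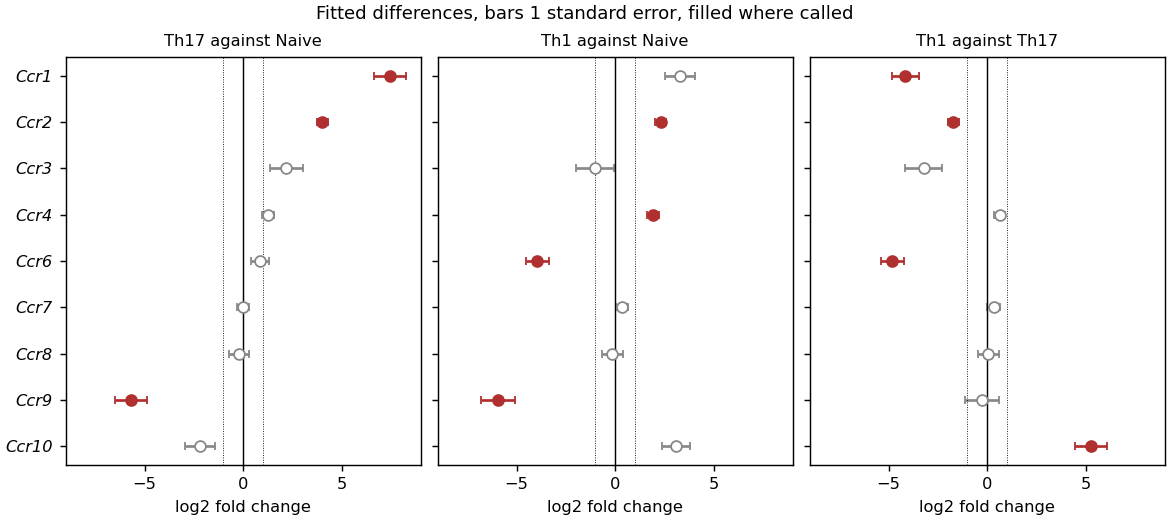
Fitted log2 fold change of each receptor gene in the 3 comparisons (horizontal axis), with bars of 1 standard error and dotted lines at -1 and 1. Filled red points are the called receptors, 3 in the left panel, 4 in the middle and 4 on the right, and open grey points are the others.

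Ccr7, the receptor for Ccl19 and Ccl21 that brings T cells into lymph nodes, was the most abundant of the set. It was at 296 and 396 CPM in the Naive libraries, 323 and 370 CPM in Th17, and 346 and 523 CPM in Th1. The groups overlapped in all 3 comparisons. The log2 fold change was 0.00 ± 0.31 (SE, n = 2 libraries a group) for Th17 against Naive, with a 95% interval from -0.69 to 0.69 and an edgeR adjusted p of 0.99. It was 0.33 ± 0.31 for Th1 against Naive, with an interval from -0.36 to 1.02 and an edgeR adjusted p of 0.53, so a rise of up to about 1 on the log2 scale lay within the interval.

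Per kilobase of exon, which allows levels of different genes to be compared, Ccr7 stood first in each cell type at a mean of 175 CPM per kb in Naive, the same 175 CPM per kb in Th17, and 220 CPM per kb in Th1. Ccr2 was next in each, with 9.44 CPM per kb in Naive, 154 CPM per kb in Th17 and 47.1 CPM per kb in Th1, and did not overlap with Ccr7 in any of them. In Naive, Ccr4 followed at 5.52 CPM per kb, and Ccr8 (2.59), Ccr9 (2.35) and Ccr6 (1.87) came next, of which Ccr8 and Ccr9 overlapped, as did Ccr9 and Ccr6. In Th17, Ccr1 (15.2 CPM per kb) and Ccr4 (13.3) overlapped, and Ccr6 (3.35) and Ccr8 (2.26) came next without overlap. In Th1, Ccr4 (20.7 CPM per kb), Ccr10 (7.30), Ccr8 (2.31) and Ccr1 (0.831) followed Ccr2, again without overlap between neighbours. The lowest were Ccr10 (0.814), Ccr3 (0.0681) and Ccr1 (0.0648) in Naive, Ccr3 (0.359), Ccr10 (0.176) and Ccr9 (0.0349) in Th17, and Ccr6 (0.114), Ccr3 (0.0432) and Ccr9 (0.0402) in Th1, all as mean CPM per kb.

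Expressed as a share of the summed per-kilobase level of the 9 genes, Ccr7 made up 86.9% and 89.7% of the receptor mRNA in the Naive libraries. Its share was 46.8% and 49.4% for Th17, and for Th1 it was 71.3% and 75.3%. Ccr2 made up 6.11% and 3.76% of the Naive total, 44.4% and 40.4% of the Th17 total, and 18.0% and 14.3% of the Th1 total. The lower share of Ccr7 in Th17 thus stood beside a level of Ccr7 that was not called changed, since the summed level was 349 and 379 CPM per kb in Th17 and 172 and 223 CPM per kb in Naive.

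**Figure D3:**
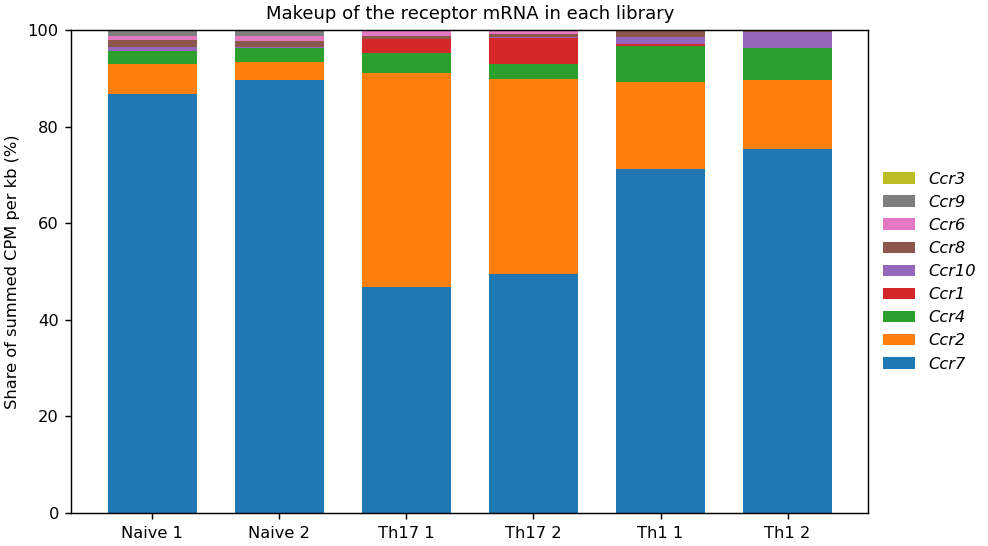
Share of the summed CPM per kb of the 9 receptor genes (%, vertical axis from 0 to 100) held by each gene in each library. Ccr7 filled 86.9% and 89.7% of the bars of Naive, and Ccr2 filled 44.4% and 40.4% of those of Th17.

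Ccr9, the receptor for Ccl25 that guides lymphocytes to the small intestine, was down-regulated in both helper cell types. It was at 10.2 and 14.6 CPM in Naive (693 and 295 counts), 0.367 and 0 CPM in Th17 (24 and 0 counts), and 0.170 and 0.253 CPM in Th1 (11 and 4 counts). Both Naive libraries were therefore above all 4 helper libraries. The log2 fold change was -5.68 ± 0.82 in Th17 against Naive (edgeR adjusted p = 0.0019) and -5.95 ± 0.86 in Th1 against Naive (edgeR adjusted p = 0.0016), n = 2 libraries a group. Without Th17 replicate 1 there was no count left in Th17, and Ccr9 was at least 73-fold higher in Naive, taking 3 counts as the limit in the remaining library. Without Th1 replicate 1, the adjusted p for Th1 against Naive was 0.013. Ccr9 lies on chromosome 9 at 123678439 to 123784330 (GRCm38, plus strand), and 18.8% of its annotated exon bases overlap AC165425.1 on the opposite strand. How reads there were assigned is not known, since the strand setting of the counting is unsettled. Ccl25, its ligand, was between 1.29 and 3.39 CPM in the 6 libraries and was not called.

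Ccr2, which binds Ccl2 and Ccl7 and draws monocytes and activated T cells into inflamed tissue, showed a graded pattern. It was at 31.5 and 25.1 CPM in Naive, 465 and 459 CPM in Th17, and 132 and 151 CPM in Th1. The 3 groups did not overlap, and the replicates differed by at most 1.26 times. Ccr2 was 16.3-fold higher in Th17 than in Naive (log2 fold change 4.03 ± 0.30, edgeR adjusted p = 5.7e-05) and 4.98-fold higher in Th1 than in Naive (2.32 ± 0.28, edgeR adjusted p = 5.6e-04). The difference between the helper cells was -1.71 ± 0.27 in Th1 against Th17 (edgeR adjusted p = 0.0033). Its size held when any of the 4 libraries compared was left out, at -1.79 to -1.62, but the adjusted p then rose to 0.020 without Th17 replicate 1, 0.017 without Th17 replicate 2, 0.028 without Th1 replicate 1 and 0.021 without Th1 replicate 2.

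Ccr1, a receptor for Ccl3 and Ccl5 that is best known on monocytes and neutrophils, had the largest increase of the set in Th17. It was at 0.367 and 0 CPM in Naive (25 and 0 counts), 28.3 and 57.8 CPM in Th17 (1851 and 1021 counts), and 3.13 and 1.58 CPM in Th1 (202 and 25 counts). No library of a group overlapped with another group, and the Th17 replicates differed by 2.04 times. The log2 fold change was 7.45 ± 0.84 in Th17 against Naive (edgeR adjusted p = 5.6e-04). Without Naive replicate 1 there was no count left in Naive, and Ccr1 was at least 290-fold higher in Th17 and at least 15.8-fold higher in Th1, taking 3 counts as the limit. In Th1 against Naive it was 3.30 ± 0.75 and not called (edgeR adjusted p = 0.015), while with the replicate number as a block the adjusted p was 0.0033, and it was 0.0065 without Naive replicate 1. In Th1 against Th17 it was -4.14 ± 0.69 (edgeR adjusted p = 0.0042), a call that was lost without Th17 replicate 1 (0.011), Th17 replicate 2 (0.027) or Th1 replicate 2 (0.019), and with DESeq2 (0.011).

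Ccr3, the receptor for Ccl11 and Ccl24 on eosinophils and basophils, was low in all 6 libraries. It was at 0.396 and 0.0495 CPM in Naive (27 and 1 counts), 1.33 and 1.02 CPM in Th17 (87 and 18 counts), and 0.0928 and 0.190 CPM in Th1 (6 and 3 counts). Both Th17 libraries were above the other 4. The log2 fold change was 2.19 ± 0.82 in Th17 against Naive (edgeR adjusted p = 0.095) and -3.23 ± 0.93 in Th1 against Th17 (edgeR adjusted p = 0.044), and neither was called. The first of these moved to 4.49 without Naive replicate 1, which leaves 1 count in Naive, and to 1.56 without Naive replicate 2.

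The marker lists of neutrophils and of monocytes, like Ccr1 and Ccr3, stood highest in Th17. The summed level of 11 genes of neutrophils and their precursors was 3006 and 2881 CPM in Th17 but 374 and 221 CPM in Naive. It was lowest in Th1 at 31.0 and 42.4 CPM, whereas Ccr1 was lowest in Naive. In Th1 against Th17, 11 of 11 were called lower, where 2.83% of all genes tested were. S100a8, a calcium-binding protein of neutrophils, was at 1149 and 1142 CPM in Th17, at most 0.969 CPM in Naive and at most 6.78 CPM in Th1, whereas Mpo, the myeloperoxidase of precursors, was highest in Naive at 251 and 159 CPM. The summed level of 13 monocyte and macrophage genes was 521 and 1260 CPM in Th17, with 216 and 183 CPM in the Naive libraries, while the Th1 libraries had 260 and 328 CPM. Lyz2, the lysozyme of myeloid cells, was at 223 and 762 CPM in the Th17 libraries, which differ in the same order as Ccr1 there, while Ccr2 was level at 465 and 459 CPM. Ctss, a protease that lymphocytes also express, held between 118 and 286 CPM of the monocyte list in all 6 libraries, and Ms4a7 and C1qa, macrophage genes, were at most 2.49 CPM. The part of such cells in the results for Ccr1, Ccr2 and Ccr3 was not tested.

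The lists of eosinophils and of mast cells and basophils also summed highest in Th17, as Ccr3 did. The mast cell and basophil sums in Th1 lay within the range of Naive. Within Th17, both lists were higher in replicate 2, whereas Ccr3 was at 1.33 and 1.02 CPM. The 9 eosinophil genes summed to 72.2 and 17.5 CPM in Naive, 75.6 and 207 CPM in Th17, and 1.58 and 1.14 CPM in Th1, with Ear2 and Ear6 at 0 in all libraries. The 10 mast cell and basophil genes summed to 72.0 and 22.4 CPM in Naive, 221 and 462 CPM in Th17, and 59.8 and 44.3 CPM in Th1, and Mcpt8, a basophil protease, was at 66.0 and 119 CPM in Th17 and at most 12.3 CPM elsewhere. Erythroid genes summed to 889 and 142 CPM in Naive and at most 2.38 CPM in the helper cells, without any globin count, and among B cell genes the sum was at most 25.2 CPM. The dendritic cell list, which holds Ccl22 and Xcr1, described further on, summed to 85.0 and 137 CPM in Th17 and at most 20.3 CPM elsewhere.

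**Figure D4:**
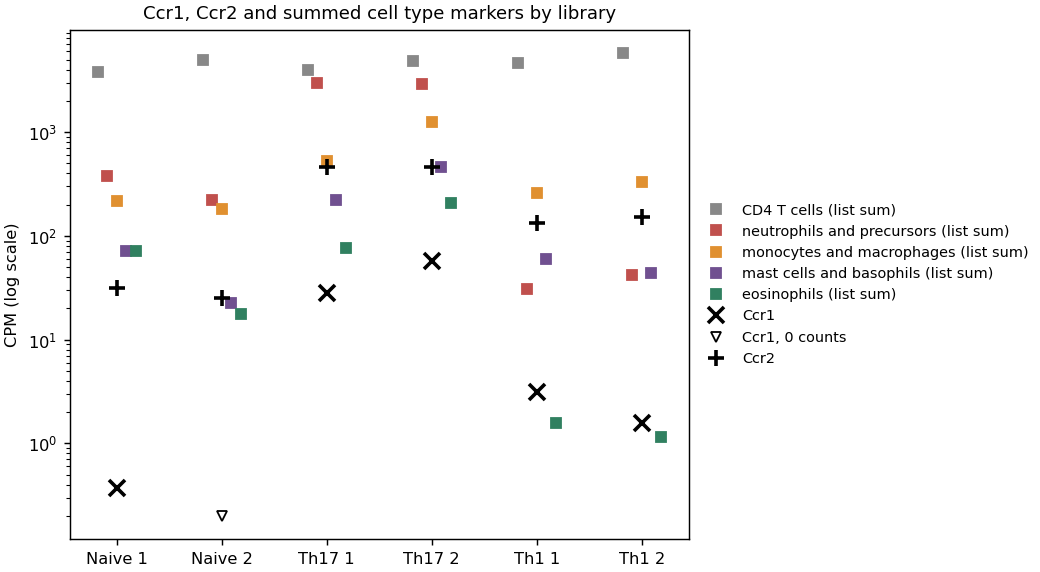
CPM on a log axis of Ccr1 (crosses) and Ccr2 (plus signs) in the 6 libraries, with squares for the summed CPM of marker lists of 5 cell types and an open triangle where Ccr1 had 0 counts. The neutrophil list stood at 3006 and 2881 CPM in Th17 against 31.0 and 42.4 CPM in Th1, whereas the CD4 T cell list stayed between 3759 and 5746 CPM.

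Ccr6, the receptor for Ccl20, was low in Th1. It was at 2.57 and 4.61 CPM in Naive (175 and 93 counts), 7.45 and 5.37 CPM in Th17 (487 and 95 counts), and 0.248 and 0.190 CPM in Th1 (16 and 3 counts). The 3 groups did not overlap. Ccr6 was 15.4-fold lower in Th1 than in Naive (log2 fold change -3.95 ± 0.58, edgeR adjusted p = 0.0018) and 27.9-fold lower in Th1 than in Th17 (-4.80 ± 0.59, edgeR adjusted p = 9.4e-04). The first call was lost without Th1 replicate 1 (adjusted p = 0.013), and the second was kept without each library in turn. The difference of Th17 from Naive was 0.86 ± 0.48, with a 95% interval from -0.21 to 1.92, and was not called (edgeR adjusted p = 0.23). Foxp3, the factor of regulatory T cells, which can also carry Ccr6, was at 39.2 and 69.9 CPM in Naive, 19.2 and 12.7 CPM in Th17 and 6.95 and 13.2 CPM in Th1. Markers of these cells went both ways in Th1 against Naive. Of 9 examined, 4 were up-regulated and 4 down-regulated, where 4.64% and 2.81% of all genes tested were. The part of regulatory T cells in the level of Ccr6 was not tested.

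Ccr4, which binds Ccl17 and Ccl22 and is known on skin-homing and regulatory T cells, rose in Th1. It was at 13.2 and 17.8 CPM in Naive, 40.0 and 34.9 CPM in Th17, and 50.5 and 65.3 CPM in Th1. The groups did not overlap and stood in this order. Ccr4 was 3.74-fold higher in Th1 than in Naive (log2 fold change 1.90 ± 0.30, edgeR adjusted p = 0.0026), and the adjusted p was 0.019 without Naive replicate 1. In Th17 against Naive the log2 fold change was 1.28 ± 0.29 and not called (edgeR adjusted p = 0.019), whereas it was called by edgeR without a filter on low counts (0.0020) and by DESeq2 (9.3e-04). The helper cells differed by 0.63 ± 0.29, with a 95% interval from -0.02 to 1.27 (edgeR adjusted p = 0.16).

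RefSeq sequence around the transcription start, from 250 bases before to 50 bases after it on GRCm38.p6, was at hand for 7 of the 9 receptors and was searched on both strands for TGANTCA (AP-1), TTCNNNGAA (STAT), GTAAACA (FOXO) and AGGTGT (T-box). Matches were found in 3 genes, and the 250 bases before the start of these are printed 5′ to 3′ on the strand of the gene, with the matches in capitals. The Ccr6 window (chr17:8235793-8236042, plus strand), held a pair of STAT matches, at -157 and -120 from the start. The windows of Ccr4 (chr9:114496545-114496794, minus strand) and Ccr3 (chr9:124021721-124021970, plus strand) each held an AP-1 match, at -143 and -144.
Ccr6: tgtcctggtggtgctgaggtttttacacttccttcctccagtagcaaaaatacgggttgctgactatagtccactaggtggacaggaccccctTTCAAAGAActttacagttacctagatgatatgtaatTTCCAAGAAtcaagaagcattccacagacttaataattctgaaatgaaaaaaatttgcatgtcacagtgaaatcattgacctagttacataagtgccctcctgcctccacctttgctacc
Ccr4: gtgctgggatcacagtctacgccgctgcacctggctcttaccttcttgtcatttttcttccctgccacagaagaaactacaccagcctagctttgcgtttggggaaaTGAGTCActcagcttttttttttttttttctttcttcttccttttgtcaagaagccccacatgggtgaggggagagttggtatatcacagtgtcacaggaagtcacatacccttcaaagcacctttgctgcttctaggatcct
Ccr3: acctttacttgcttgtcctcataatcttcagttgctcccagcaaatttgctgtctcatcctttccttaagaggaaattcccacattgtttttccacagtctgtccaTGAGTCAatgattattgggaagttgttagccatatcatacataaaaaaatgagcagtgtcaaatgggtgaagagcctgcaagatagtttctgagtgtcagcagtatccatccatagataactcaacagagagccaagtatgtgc

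Among 32851 windows of this length in RefSeq, 8.3% held a STAT match and 7.81% an AP-1 match, so each is common. FOXO and T-box letters, found in 3.65% and 13.7% of all windows, occurred in no receptor window. The second Ccr6 start (window chr17:8242276-8242575) and the windows of Ccr1, Ccr2, Ccr8 and Ccr9 held no match, which says only that these letters are not in those windows.

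Ccr8, the receptor for Ccl1 that is known on type 2 helper and regulatory T cells, did not pass the test in any comparison. It was at 3.02 and 3.07 CPM in Naive, 2.37 and 2.94 CPM in Th17, and 3.79 and 1.64 CPM in Th1. Both Th17 libraries lay just below the Naive libraries, and the Th1 libraries spanned all of them. The log2 fold changes were -0.20 ± 0.52 (Th17 against Naive), -0.14 ± 0.51 (Th1 against Naive) and 0.07 ± 0.52 (Th1 against Th17), with edgeR adjusted p of 0.81, 0.90 and 0.94, and their 95% intervals reached from -1.35 to 1.22, so changes of about 2-fold either way lay within them.

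Ccr10, which binds Ccl27 and Ccl28 and is known for homing to skin and mucosal surfaces, was highest in Th1. It was at 2.22 and 0.594 CPM in Naive (151 and 12 counts), 0.383 and 0.226 CPM in Th17 (25 and 4 counts), and 6.31 and 18.9 CPM in Th1 (408 and 299 counts). The groups did not overlap, but the replicates differed by 3.73 times in Naive and 2.99 times in Th1. Ccr10 was 38.3-fold higher in Th1 than in Th17 (log2 fold change 5.26 ± 0.82, edgeR adjusted p = 0.0031). That call was lost without Th17 replicate 1 (0.027), Th17 replicate 2 (0.021) or Th1 replicate 2 (0.011, with a log2 fold change of 4.30). In Th1 against Naive the log2 fold change was 3.09 ± 0.71 and not called (edgeR adjusted p = 0.016), while it was called with the replicate number as a block (0.0067), without Th1 replicate 1 (0.0068) and by DESeq2 (1.4e-04). Its size depended on single libraries and was 4.38 without Naive replicate 1, 2.49 without Naive replicate 2, 3.74 without Th1 replicate 1 and 2.12 without Th1 replicate 2.

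The genes beside Ccr10 had a similar pattern. Ccr10 lies on chromosome 11 at 101172997 to 101175443 (GRCm38, minus strand), wholly within the span of Cntnap1 on the opposite strand but with 0 bases of shared exon, and 1645 bases from Plekhh3 on its own strand. Cntnap1, which encodes a protein of the contacts between axon and myelin, was at 1.59 and 1.68 CPM in Naive, 1.18 and 0.566 CPM in Th17, and 15.0 and 26.7 CPM in Th1. Plekhh3, a gene with pleckstrin homology domains, was at 1.12 and 0.743 CPM in Naive, 1.79 and 0.792 CPM in Th17, and 12.01 and 12.14 CPM in Th1. Both were called higher in Th1 than in Naive, with log2 fold changes of 3.67 ± 0.50 for Cntnap1 (edgeR adjusted p = 0.0012) and 3.66 ± 0.53 for Plekhh3 (0.0016). They were also higher in Th1 than in Th17, by 4.50 ± 0.52 (6.8e-04) and 3.17 ± 0.51 (0.0037). Ezh1, farther along, was between 53.1 and 112 CPM and was not called. The methods and the code accompanying the study give different strand settings for counting, so reads from unspliced Cntnap1 transcripts across Ccr10 cannot be told apart from Ccr10 reads with the sources used here.

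Ccr1, Ccr2, Ccr3 and Ccr9 lie on chromosome 9 between 123678439 and 124113557, with other trafficking receptors beside them. Cxcr6, a receptor of activated and tissue T cells, was at 38.5 and 33.9 CPM in Naive, 247 and 331 CPM in Th17, and 372 and 408 CPM in Th1, and was up-regulated in both (log2 fold changes 2.99 ± 0.29 and 3.43 ± 0.30, edgeR adjusted p = 2.6e-04 and 1.3e-04). Xcr1, the receptor for lymphotactin, was at 0.793 and 0.446 CPM in Naive, at most 3.03 CPM in Th17 and 5.55 and 4.99 CPM in Th1, and was called in Th1 against Naive (3.04 ± 0.51, edgeR adjusted p = 0.0034). Neighbouring genes of the cluster thus moved in different directions, Ccr9 falling in both helper cell types and Cxcr6 rising in both. Ltf and Ccrl2 were also listed as neighbours, but a position in this stretch was not established for them. Ltf, which encodes the neutrophil granule protein lactoferrin, was at 214 and 150 CPM in Th17 and at most 1.39 CPM elsewhere. Ccrl2, a receptor-like gene that binds chemerin, was at 7.35 and 6.32 CPM in Th1 and between 1.42 and 3.07 CPM elsewhere, and was not called.

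**Figure D5:**
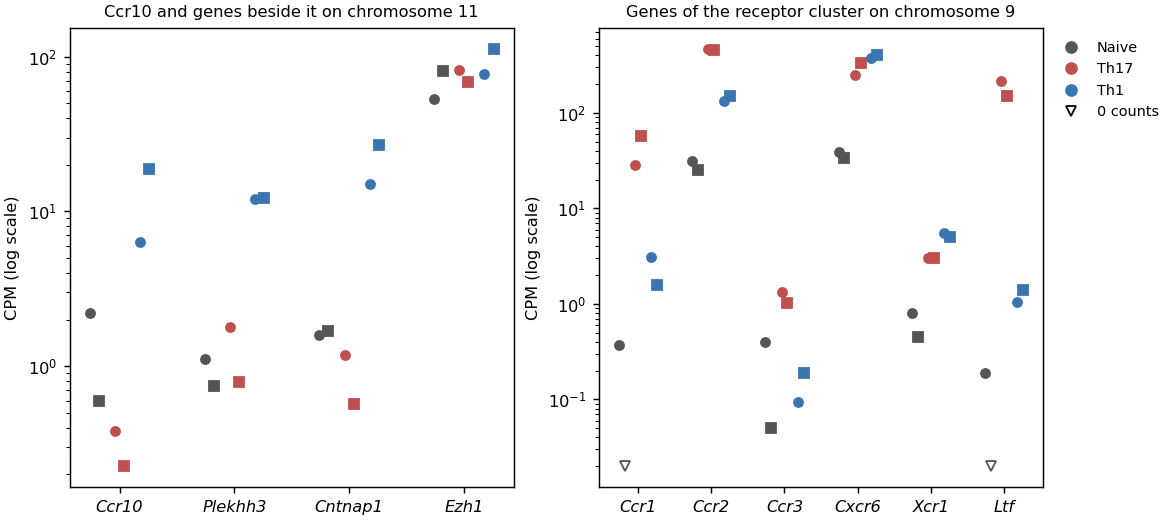
CPM on a log axis of Ccr10 and genes near it (left) and of genes of the chromosome 9 cluster with Ltf (right). Circles stand for replicate 1, squares for replicate 2 and open triangles for 0 counts. The panel title counts Ltf with the cluster, but its position there was not established. Ccr10, Plekhh3 and Cntnap1 were each highest in both Th1 libraries, while Ezh1 was between 53.1 and 112 CPM throughout.

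Of 20 genes of CC chemokine ligands in the count tables, 13 passed the filter on low counts. In Th17 against Naive, 5 of these 13 were called, where 5.43% of all genes were, and the 5 were all up-regulated. The median log2 fold change of the 13 was 4.21, or 3.95 with the genes absent from Naive set at their bound, against -0.02 over all genes. Ccl22, a ligand of Ccr4, was at 0.0147 and 0 CPM in Naive, 32.8 and 66.1 CPM in Th17, and 5.48 and 4.11 CPM in Th1. Ccl6, a ligand of Ccr1 in mice, was at 0.910 and 0.396 CPM in Naive, 139 and 419 CPM in Th17, and 15.1 and 13.2 CPM in Th1, with log2 fold changes of 8.60 ± 0.66 in Th17 and 4.30 ± 0.57 in Th1 against Naive (edgeR adjusted p = 6.8e-05 and 0.0010). These were the 2 of 13 ligands called in Th1 against Naive, where 7.45% of all genes were called. Ccl20, the ligand of Ccr6, was at 1.39 and 1.58 CPM in Th17 with no count in Naive or Th1, at least 15.5-fold higher than in Naive and 12.6-fold higher than in Th1, taking 3 counts a library as the limit (edgeR adjusted p = 0.0045 and 0.0052). Ccl2, a ligand of Ccr2, was at 1.30 and 11.6 CPM in Th17 and at most 0.0155 CPM elsewhere, and Ccl3, a ligand of Ccr1, was at 3.87 and 7.19 CPM in Th17 and at most 1.13 CPM elsewhere.

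In Th1 against Th17, 5 of the 13 ligands were called, against 5.53% of all genes, and the 5 were all lower (Ccl2, Ccl6, Ccl9, Ccl20 and Ccl22). The median log2 fold change of the 13 was -3.35, against -0.03 over all genes. Ccl9 stood at 20.9 and 174 CPM in the Th17 libraries, which differed in the same order for Ccr1 and Lyz2, and so did Ccl17, which was not called, at 2.48 and 22.8 CPM. Ccl5, a ligand of Ccr1 and Ccr3 made by memory and cytotoxic T cells, was at 28.6 and 17.3 CPM in Naive, 5.36 and 13.1 CPM in Th17 and 13.6 and 8.16 CPM in Th1, and was not called. Ccl19 and Ccl21a, the ligands of Ccr7, and Ccl11, a ligand of Ccr3, had no count in any library. Ccl27a and Ccl28, the ligands of Ccr10, were at most 2.55 and 0.446 CPM and were not called. The counts of called ligands depended on single libraries: in Th17 against Naive 2 were called without Naive replicate 1, 3 without Naive replicate 2 and 2 without Th17 replicate 2, and in Th1 against Th17 2 were called without Th17 replicate 2, without Th1 replicate 1 or without Th1 replicate 2.

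Of 34 genes that act downstream of chemokine receptors, all of which were tested, 3 were called in Th17 against Naive, 5 in Th1 against Naive and 3 in Th1 against Th17, where 5.43%, 7.45% and 5.53% of all genes were called. In Th17 against Naive, Rgs1, which speeds up the shut-off of G protein signals, was up-regulated (14.3 and 22.8 CPM in Naive, 80.9 and 60.7 CPM in Th17, log2 fold change 1.94 ± 0.31, edgeR adjusted p = 0.0034), and Rgs3 and Rasgrp2 were down-regulated. In Th1 against Naive, Gng2, a G protein gamma subunit, and Rgs1 were up-regulated and Rgs2, Rgs16 and Rasgrp2 were down-regulated. Rasgrp2, an activator of the integrin switch Rap1, was at 272 and 424 CPM in Naive, 76.1 and 66.4 CPM in Th17 and 58.5 and 110 CPM in Th1, lower in both helper cell types by 2.29 ± 0.37 and 2.05 ± 0.36 on the log2 scale (edgeR adjusted p = 0.0034 and 0.0046). In Th1 against Th17, Rgs3 and Pik3r5 were higher and Rgs18 was lower, with Rgs3 at 155 and 164 CPM in Th1 and 30.3 and 26.9 CPM in Th17. Gnai2, which encodes the inhibitory G protein alpha subunit most used by these receptors, was between 515 and 1254 CPM and was not called. These counts fell to 0 without Th17 replicate 1 and 1 without Th17 replicate 2 in Th17 against Naive. They fell to 2 without Naive replicate 1, Naive replicate 2 or Th1 replicate 1, and to 3 without Th17 replicate 1 or Th1 replicate 2, in Th1 against Naive. In Th1 against Th17 they fell to 1 without Th17 replicate 1, Th17 replicate 2 or Th1 replicate 1.

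Among 16 other trafficking receptors and integrins, all tested, 5 were called in Th17 against Naive, 7 in Th1 against Naive and 3 in Th1 against Th17, where 5.43%, 7.45% and 5.53% of all genes were called. Cxcr6 and Gpr15 were up-regulated and Cxcr3, Cxcr5 and Itga4 were down-regulated in Th17 against Naive. Gpr15, a receptor for homing to the colon, was at 25.2 and 20.7 CPM in Th17, at 2.14 and 1.78 CPM in Naive, and in Th1 at 3.48 and 0.632 CPM. In Th1 against Naive, Cxcr3, Cxcr6, Xcr1 and Gpr183 were up-regulated and Cxcr5, Cx3cr1 and Itga4 were down-regulated. Cxcr3, a receptor known on Th1 cells, was at 48.3 and 47.5 CPM in Naive, 13.6 and 9.45 CPM in Th17 and 122 and 167 CPM in Th1, and differed between the helper cells by 3.64 ± 0.31 on the log2 scale (edgeR adjusted p = 1.9e-04). Itga4, the integrin chain that pairs for gut homing with Itgb7, was at 375 and 496 CPM in Naive, 125 and 82.4 CPM in Th17, and 54.5 and 69.9 CPM in Th1, beside Ccr9, which also fell. In Th1 against Th17, Cxcr3 was higher and Gpr15 and Itgae, an integrin chain of T cells in epithelia, were lower. The count of 5 in Th17 against Naive became 3 without Naive replicate 2, 2 without Th17 replicate 1 and 1 without Th17 replicate 2, and the count of 7 in Th1 against Naive became 4 without Naive replicate 1, Naive replicate 2 or Th1 replicate 2.

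The genes with the most similar pattern were found for the 6 called receptors as those at the smallest Euclidean distance in centred log2 CPM over the 6 libraries, among 11723 genes with a mean of at least 1 CPM. For Ccr1 they were Upp1 (distance 0.877), Ccl6 (1.64) and Spp1 (1.71). For Ccr2 they were Echdc2 (0.758), Il21 (0.769) and 5830411N06Rik (0.789), and for Ccr4 Trpm4 (0.191), Tnfrsf10b (0.318) and Pkm (0.343). For Ccr6 they were Tox2 (0.703), Peli2 (0.783) and Spsb1 (1.21). For Ccr9 they were Dtx1 (2.09), Cd163 (2.32) and Ntn4 (2.45), and for Ccr10 Hopx (1.61), Lgals7 (1.65) and Nkg7 (1.69). Within the set, the closest receptor to Ccr1 was Ccr2, at a distance of 4.73. The ranking depended on the measure, and with Pearson's r in place of distance Trpm4 for Ccr4 and Tox2 for Ccr6 were the genes found by both.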

How the data were processed

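RNA-Seq was performed on the 3 cell types with 2 libraries a cell type. Per the labels, polyadenylated RNA was copied by Smart-seq2 and sequenced after TruSeq preparation. The authors aligned reads to mm10 with HISAT2 (2.2.1) and counted them per gene with HTSeq (0.13.5), and the deposited values are raw counts for each library. The methods state removal of duplicates and default HTSeq settings, whereas the accompanying code has no such removal and a reverse-stranded option, so the strand used is unsettled.

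The model was fitted with edgeR 4.0.16 and limma 3.58.1 in R 4.3.3, after filterByExpr and TMM scaling, with cell type as the sole term over all 6 libraries and a quasi-likelihood F-test for each pair. An exact two-sided permutation test of 2 libraries against 2 has a smallest p of 0.333, and single genes were therefore judged by the model across all genes. Errors after ± are standard errors of that model, and limits of 3 counts cover counting error only. Levels per kilobase used the exons of RefSeq-linked transcripts in GENCODE vM21 (GRCm38, which is mm10). The script was tested on simulated data.

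The receptors and gene lists were chosen with earlier results of these data known. Genes named are the 9 receptors, genes listed as their neighbours, ligands, and the 3 genes of most similar pattern for each called receptor. At most 4 called genes a list and comparison with the largest fold change, and at most 4 markers a list, are also named. Gnai2, Foxp3, Tbx21, Gata3 and further called trafficking receptors and signalling genes were named after their values were seen. Settings tried were DESeq2 1.42.0, RLE or no scaling factors, no minimum count or a minimum of 10 in each library, a block for replicate number, a fit to the 4 compared libraries, thinning to equal depth, a looser threshold of 0.05, glmTreat against a 2-fold change, and leaving out each library. In the last, a group is left with 1 library, whose spread is assumed to be that of the other groups. Some results are not reported here.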

Additional observations from a re-analysis of the deposited data

How the results depend on the processing

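Of 442 values of single receptors under the alternatives, 408 kept their side of the threshold, 17 were no longer called and 17 were newly called. No value changed sign while being called in the main fit or in the alternative. Values called in neither fit could change sign and still count among the 408. For Ccr3 in Th1 against Naive, the log2 fold change was -1.03 in the main fit and reached 1.26 among the alternatives. In Th17 against Naive, 5 receptors were called without a filter and 1 with at least 10 counts in every library, against 3. In Th1 against Naive, 2 were called with at least 10 counts in every library, against 4, and in Th1 against Th17, 1 was, against 4; that filter leaves out receptors with few counts in any library, so fewer were tested. Leaving out each library in turn gave 3 receptors in Th17 against Naive, between 3 and 4 in Th1 against Naive, and between 1 and 4 in Th1 against Th17, where 1 was called (Ccr6) without Th17 replicate 1, Th17 replicate 2 or Th1 replicate 2. Over all genes, the calls numbered 739, 1014 and 752, and across the alternatives between 307 and 2093, 511 and 2225, and 266 and 2196. The glmTreat test lost Ccr4 in Th1 against Naive (adjusted p = 0.024) and Ccr2 in Th1 against Th17 (0.050), and the fit without a filter added Ccr4 (0.0020) and Ccr10 (0.0017) in Th17 against Naive, Ccr1 (1.9e-10) and Ccr10 (2.2e-07) in Th1 against Naive, and Ccr3 in Th1 against Th17 (0.0098). For the calls lost or gained, the cause was not tested.

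Same-numbered libraries deviated from their group means with correlations of -0.23, 0.17 and 0.08 in the 3 comparisons, and the labels do not tie the numbers to a shared batch, so they were not treated as pairs. With the replicate block, edgeR called 3, 6 and 4 receptors and 1035, 1402 and 1041 genes; beyond Ccr1 and Ccr10 in Th1 against Naive it changed no receptor's call. The limits of depth touch Ccr1, Ccr3, Ccr6, Ccr9 and Ccr10 most, which had 4 counts or fewer in at least 1 library.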
